A study of Mus musculus with 13 samples.

Results

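The hearts analysed came from mice with a knock-in allele, E3A, of Cpt1b, the gene of the muscle carnitine palmitoyltransferase 1 (CPT1B), which admits long-chain fatty acids to mitochondria and whose inhibition by malonyl-CoA is lessened by the allele. Values are described here for 6 genes of the SLC9 family of sodium-proton exchangers, Slc9a2, Slc9a3, Slc9a5, Slc9a7, Slc9a8 and Slc9a9, out of 12 SLC9 symbols and 24061 symbols in all. The group was built around Slc9a9, which was selected on its measured fall in E3A/E3A against WT/WT hearts in 9 of the 13 libraries. The other 5 members were chosen by name.

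Poly(A) RNA of whole hearts was read from 13 male C57BL/6N mice that were 13 weeks old and ate chow, 1 library per heart. There were 5 hearts with 2 E3A alleles (E3A/E3A), 4 with 1 (WT/E3A) and 4 with none (WT/WT). All 3 groups shared strain, sex, age and diet. Each whole heart mixes cell types, so a gene's value cannot tell fewer cells of a type from less RNA per cell. The sample descriptions mark 4 libraries as potential outliers, namely E3A/E3A replicates 1 and 2, WT/E3A replicate 1 and WT/WT replicate 1, so fits were made with all 13 libraries and with the other 9, 3 per genotype, and the main values are given for both.

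The 4 marked libraries stood apart across the heart transcriptome. Myh6, the alpha myosin heavy chain of cardiomyocytes, took 6.59 to 9.49% of all counts in them and 3.90 to 4.61% in the other 9. Depth ran over all 13 from 20.08 to 52.6 M counts. Of the cardiomyocyte markers, 8 of 8 had reads in every heart, and their summed level was 82100 to 142000 CPM (counts scaled to a common library size) in E3A/E3A, 79100 to 184000 CPM in WT/E3A and 76100 to 176000 CPM in WT/WT hearts. The haemoglobin genes Hba-a1, Hba-a2, Hbb-bs, Hbb-bt and Hbb-b1 were listed at 0 in every heart.

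Sodium-proton exchangers are membrane proteins that swap a sodium ion (or, inside the cell, also potassium) for a proton and so set the pH on either side of the membrane they sit in. Slc9a2 and Slc9a3 are best known from the apical membrane of gut and kidney epithelium, and Slc9a5 from neurons. Slc9a7, Slc9a8 and Slc9a9 belong to organelles: Slc9a9 moves protons out of recycling endosomes against the vacuolar proton pump, Slc9a7 does so at the trans-Golgi network, and Slc9a8 is found at the Golgi and, in epithelia, at the apical membrane.

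The 300 bases around the annotated start of transcription are shown for Slc9a9, the member whose level spread widest between hearts, and for Slc9a8, the member with the most counts,. Both come from RefSeq on GRCm38.p6, 250 bases before the start to 50 after it, 5′ to 3′ on the plus strand, with each CpG in capitals. The Slc9a9 window is chr9:94669642-94669941 and the Slc9a8 window is chr2:167421460-167421759.
Slc9a9: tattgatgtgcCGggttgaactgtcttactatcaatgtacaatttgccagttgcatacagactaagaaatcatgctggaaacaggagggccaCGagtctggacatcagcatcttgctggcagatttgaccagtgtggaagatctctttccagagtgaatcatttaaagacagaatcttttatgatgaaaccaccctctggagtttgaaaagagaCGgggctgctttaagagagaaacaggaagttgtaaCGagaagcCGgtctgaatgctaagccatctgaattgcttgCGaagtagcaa
Slc9a8: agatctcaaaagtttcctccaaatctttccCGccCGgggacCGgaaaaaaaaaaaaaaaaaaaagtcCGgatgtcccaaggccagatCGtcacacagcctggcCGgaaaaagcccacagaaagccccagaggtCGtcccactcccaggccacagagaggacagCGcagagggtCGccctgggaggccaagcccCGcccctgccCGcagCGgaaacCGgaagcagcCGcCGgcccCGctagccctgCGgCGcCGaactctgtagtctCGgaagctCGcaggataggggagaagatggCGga
The Slc9a9 window held 6 CpG and had 43.7% GC, and the Slc9a8 window held 22 CpG and had 61.3% GC. Windows were also in the table for Slc9a3, Slc9a5 and Slc9a7, with 25, 20 and 24 CpG, and there was no entry for Slc9a2. Over 32851 mouse promoter windows the median was 7 CpG and 52.7% GC, and 47.9% held 6 or fewer CpG, so the Slc9a9 window is ordinary in this respect and the other 4 are CpG-rich. On both strands 5 motifs were searched: the TATA box (TATAAA), held by 13.6% of all windows, the CCAAT box (CCAAT), held by 37.4%, the GC box (GGGCGG), held by 35.7%, a nuclear receptor site written as AGGTCA, held by 16.3%, and the E-box form CACGTG, held by 7.15%. The Slc9a9 window held none of them, and the Slc9a8 window held the GC box 2 times. These letters describe the windows only.

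Slc9a9 lies on chromosome 9, 94669909 to 95230445 on the plus strand of GRCm38, a span of 560.5 kb whose longest transcript has 16 exons and 3468 bases. Its span overlaps the antisense gene Gm16262 and the pseudogene Gm47168, which are not among the counted symbols, and the microRNA gene Mir7656, which is. Whether they overlap its exons, and so could share its reads, was not checked. No source used here gives the strand setting of the counting. Slc9a2 (chromosome 1, 40680574 to 40769273) overlaps the antisense gene Gm37623, and Slc9a7 (chromosome X, 20105754 to 20291807) overlaps the pseudogene Gm9083. Slc9a3 is on chromosome 13 (74121457 to 74169442), Slc9a5 on chromosome 8 (105348843 to 105369881) and Slc9a8 on chromosome 2 (167421712 to 167477000).

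Among the members, Slc9a8 carried the most counts, 19374 over all hearts, which was 33.4% of the counts of the 12 SLC9 symbols. The totals for the others were 3545 for Slc9a2, 2162 for Slc9a5, 1233 for Slc9a7, 895 for Slc9a9 and 636 for Slc9a3. Per length, on the scale of CPM per kilobase of exon averaged over 13 hearts, Slc9a8 stood at 5.01, Slc9a2 at 1.19, Slc9a5 at 0.957, Slc9a7 at 0.770, Slc9a9 at 0.364 and Slc9a3 at 0.268. Slc9a8 lay above Slc9a2 in every heart, with lowest and highest values of 3.73 and 5.95 against 1.01 and 1.503. From Slc9a2 down to Slc9a3 neighbours in the order overlapped: the range was 0.623 to 1.399 for Slc9a5, 0.486 to 1.05 for Slc9a7, 0.0485 to 0.598 for Slc9a9 and 0.138 to 0.456 for Slc9a3. Counting over the longest transcript in place of all exons raised Slc9a8 to 9.40 and left the order of the 6 members as it was.

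**Figure D1:**
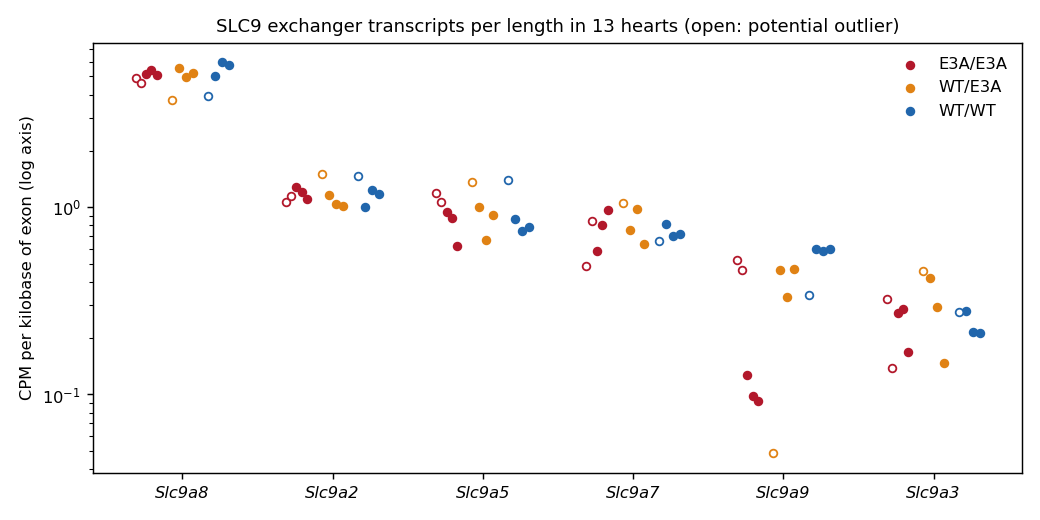
CPM per kilobase of exon (log axis) of the 6 genes, for each heart, coloured by genotype, with open points for the 4 libraries described as potential outliers. Slc9a8 sits highest, and Slc9a9 is the gene whose hearts spread widest, from 0.0485 to 0.598.

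All 6 members passed the filter on low counts in both sets of libraries, in which 14387 genes (13 libraries) and 14373 genes (9 libraries) were tested. The level of Slc9a9 was 2.98, 2.63, 0.723, 0.556 and 0.524 CPM in E3A/E3A replicates 1 to 5 (117, 59, 29, 19 and 13 reads). It was 0.275, 2.64, 1.87 and 2.65 CPM in WT/E3A replicates 1 to 4 (8, 56, 65 and 65 reads), and 1.92, 3.39, 3.31 and 3.39 CPM in WT/WT replicates 1 to 4 (84, 148, 84 and 148 reads). With all 13 hearts the groups overlapped: E3A/E3A replicates 1 and 2 were within the range of WT/WT, and WT/E3A replicate 1 was the lowest heart of all. The highest heart was 12.3 times the lowest. The next widest span among the members was 3.31 times, for Slc9a3, and the span was 2.24 times for Slc9a5, 2.17 times for Slc9a7, 1.59 times for Slc9a8 and 1.49 times for Slc9a2.

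Without the 4 marked libraries the 3 genotypes were apart from each other in Slc9a9. E3A/E3A hearts averaged 0.601 ± 0.107 CPM, WT/E3A hearts 2.39 ± 0.443 CPM and WT/WT hearts 3.36 ± 0.0498 CPM (SD, n = 3 each). WT/E3A lay between the others, from 1.87 to 2.65 CPM, and the order was the same when CPM were scaled by total counts alone. With all 13 libraries E3A/E3A averaged 1.48 ± 1.22 CPM (SD, n = 5), WT/E3A 1.86 ± 1.12 CPM (SD, n = 4) and WT/WT 3.00 ± 0.720 CPM (SD, n = 4). In the same 9 hearts the summed markers of cardiomyocytes were 82100 to 82600 CPM in E3A/E3A and 76100 to 81800 CPM in WT/WT hearts, those of fibroblasts 878 to 960 and 839 to 876 CPM, and those of smooth muscle and pericytes 556 to 573 and 526 to 532 CPM. The low markers of epicardium (7.77 to 15.6 and 5.77 to 7.55 CPM) and of white adipocytes (2.62 to 4.44 and 2.01 to 2.52 CPM) were apart in the same direction. Of the 4 tested adipocyte genes, 3 were higher and 1 was lower in E3A/E3A. With all 13 libraries 0 were higher and 4 lower (median log2 fold change -0.5). In the 9 hearts the summed markers of endothelium, macrophages, lymphocytes, blood, Schwann cells and skeletal muscle overlapped between E3A/E3A and WT/WT. The atrial markers were higher in E3A/E3A in 5 of 5 genes (median log2 fold change 0.84, against 0.00 over all genes), with summed levels that overlapped, 205 to 457 and 124 to 245 CPM. No marker gene was called in that comparison. In WT/E3A hearts of the 9 libraries the summed markers of cardiomyocytes were 79100 to 86800 CPM and those of fibroblasts 862 to 946 CPM. Those of smooth muscle and pericytes were 537 to 618 CPM, of epicardium 6.5 to 14.8 CPM and of white adipocytes 0.942 to 3.78 CPM. Except for smooth muscle and pericytes against WT/WT, these ranges overlapped those of both other genotypes. How many of all genes were likewise apart is not given here. The part of any of these markers in Slc9a9 was not tested. The SD of Slc9a9 in E3A/E3A hearts was 0.107 CPM without the marked libraries and 1.22 CPM with them.

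The depth behind these values is small. The 95% Wilson interval of the 8 reads in WT/E3A replicate 1 was 0.140 to 0.543 CPM, below the other WT/E3A hearts and overlapping those of E3A/E3A replicates 3, 4 and 5 (0.503 to 1.04, 0.356 to 0.868 and 0.306 to 0.897 CPM). The interval of WT/WT replicate 1 was 1.55 to 2.38 CPM, below the 3.31 CPM of the next WT/WT heart. Such intervals cover counting error only, because the reads carry no molecular identifiers and copies made by PCR count again.

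**Figure D2:**
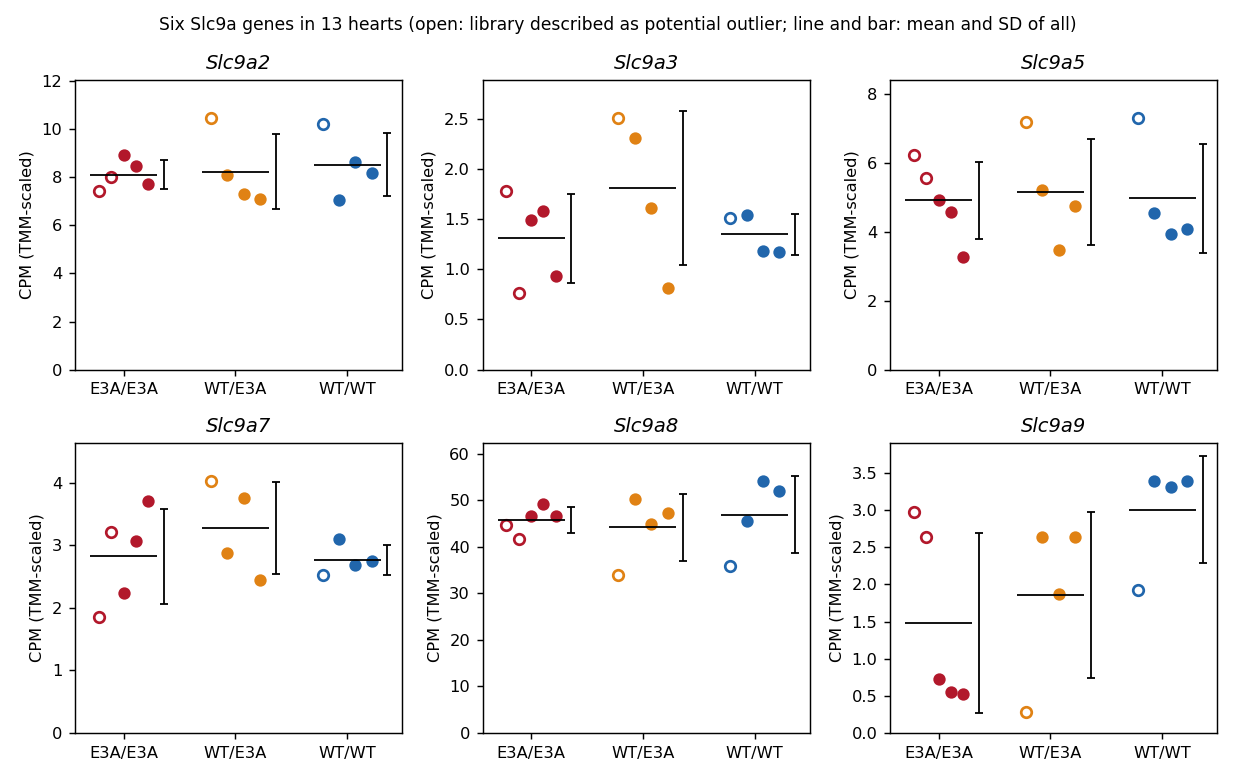
CPM of each of the 6 genes in every heart, by genotype, with open points for the 4 libraries described as potential outliers and a line and bar for the mean and SD of all hearts of the group. In Slc9a9 the filled E3A/E3A points lie at 0.524 to 0.723 CPM and the filled WT/WT points at 3.31 to 3.39 CPM, whereas the open points do not follow that order.

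As fitted values, Slc9a9 in E3A/E3A against WT/WT hearts had a log2 fold change of -2.45 (SE 0.195) in the 9 libraries and -1.02 (SE 0.617) in all 13. The 9-library value was the fifth largest of 14373 by size, but since the gene was selected on it, it is a description and no p-value is given. WT/E3A against WT/WT gave -0.52 (SE 0.167) in the 9 libraries and -0.70 (SE 0.656) in the 13. E3A/E3A against WT/E3A gave -1.94 (SE 0.207) in the 9 and -0.32 (SE 0.636) in the 13. These last comparisons use the WT/WT or the E3A/E3A hearts on which the gene was selected, so they are not independent support and their values are descriptions too. In the 13 libraries leaving out WT/E3A replicate 1 moved WT/E3A against WT/WT to -0.34, and leaving out E3A/E3A replicate 1 moved E3A/E3A against WT/WT to -1.48. With 1 heart left out, E3A/E3A against WT/E3A ran from -0.77, without E3A/E3A replicate 1, to -0.08, without WT/E3A replicate 4. It was -0.68 without WT/E3A replicate 1 and -0.60 without E3A/E3A replicate 2, which are marked libraries, as is E3A/E3A replicate 1. With the title prefix as a block it was -1.43.

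Calls at an adjusted p under 0.05 (edgeR quasi-likelihood test, Benjamini-Hochberg over all genes tested) are set beside the share of all tested genes called. In E3A/E3A against WT/WT hearts 1 member, Slc9a9, was called in the 9 libraries, where 0.271% of genes were, and 0 of 6 in the 13, where 0.00695% were. Since the 9-library comparison chose Slc9a9, nothing is read from its call. In WT/E3A against WT/WT 0 of 6 were called in the 9 libraries (0.0209% of genes) and 0 of 6 in the 13 (0% of genes). In E3A/E3A against WT/E3A Slc9a9 alone of the 6 was called in the 9 libraries (0.0417% of genes), a call that limma-voom did not make, and 0 of 6 in the 13 (0% of genes). Over all tested genes of the 13 libraries, an unadjusted p under 0.05 was reached by 173 genes when E3A/E3A hearts were set against WT/WT, by 117 with WT/E3A as the numerator, and by 208 between the genotypes that carry E3A. Among the members that count was 0 of 6 in each 13-library comparison. DESeq2 and limma-voom also called 0 members wherever edgeR called 0.

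**Figure D3:**
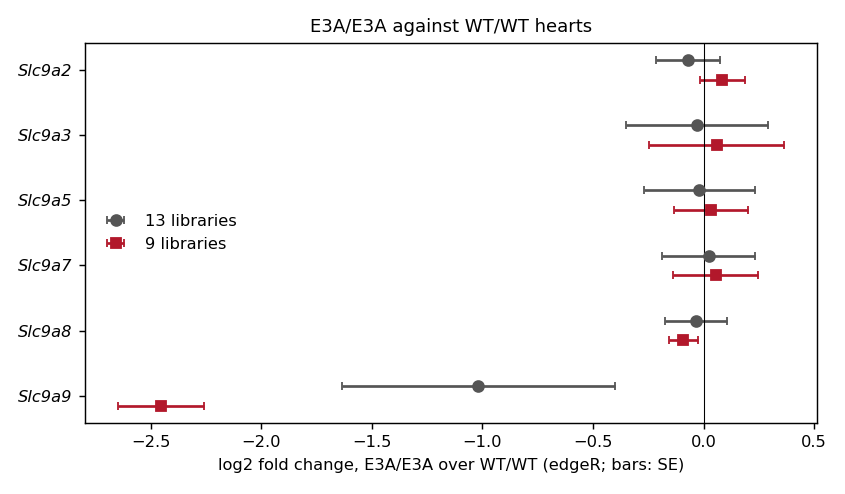
Log2 fold change of each gene in E3A/E3A over WT/WT hearts with its SE, from the fit on 13 libraries (circles) and on 9 libraries (squares). Slc9a9 was at -1.02 and -2.45, and the other 5 genes lay between -0.09 and 0.08.

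The titles of the samples begin with C2, C3, C4 or C6, a prefix that no source used here explains. In C2, where all libraries are marked, the 2 E3A/E3A hearts averaged 2.81 CPM of Slc9a9 and the 1 WT/WT heart had 1.92 CPM, a difference of 0.52 between the means of log2(CPM + 0.1). In C3, where none is marked, the 2 E3A/E3A hearts averaged 0.624 CPM and the 1 WT/WT heart had 3.39 CPM, a difference of -2.29 on the same scale. The WT/E3A heart of C3 had 2.64 CPM. In C4 the 1 E3A/E3A heart had 0.556 CPM and the 3 WT/E3A hearts, 1 of them marked, averaged 1.60 CPM, a difference of -0.95 on the same scale of mean log2. Without the marked heart, which had 0.275 CPM, the other 2 averaged 2.26 CPM and the difference was -1.83, a value chosen after seeing the data. C6 held only WT/WT hearts, both unmarked. Prefix and mark cannot be told apart in C2, and the part of either in the values was not tested.

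**Figure D4:**
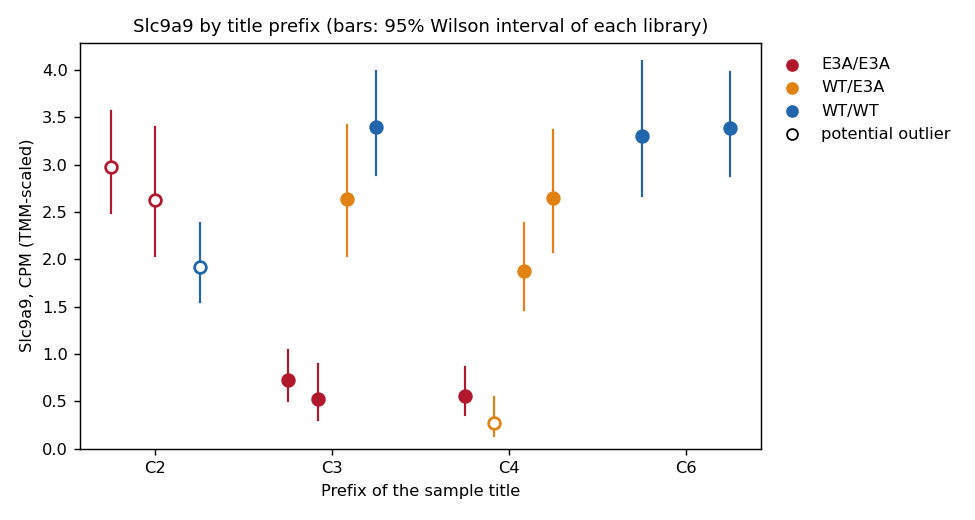
Slc9a9 in CPM for each heart by the prefix of its title, coloured by genotype, with 95% Wilson intervals and open points for libraries described as potential outliers. E3A/E3A hearts sit above the WT/WT heart in C2 (2.98 and 2.63 against 1.92 CPM) and below it in C3 (0.723 and 0.524 against 3.39 CPM).

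Slc9a8, the Golgi exchanger, had 44.7, 41.7, 46.7, 49.1 and 46.5 CPM in E3A/E3A replicates 1 to 5, 33.96, 50.3, 44.96 and 47.3 CPM in WT/E3A replicates 1 to 4, and 35.8, 45.6, 54.1 and 52.0 CPM in WT/WT replicates 1 to 4. The groups overlapped. Its log2 fold change in E3A/E3A against WT/WT was -0.04 (SE 0.140, edgeR adjusted p = 1) in the 13 libraries and -0.09 (SE 0.0654, adjusted p = 0.834) in the 9. Slc9a7, at the trans-Golgi network, averaged 2.82 ± 0.753 CPM in E3A/E3A (n = 5), 3.27 ± 0.740 CPM in WT/E3A (n = 4) and 2.76 ± 0.244 CPM in WT/WT hearts (n = 4, all SD). In the 9 libraries these were 3.01 ± 0.736, 3.02 ± 0.665 and 2.84 ± 0.225 CPM (SD, n = 3 each). Its E3A/E3A against WT/WT value was 0.02 (SE 0.212, edgeR adjusted p = 1) in the 13 libraries and 0.05 (SE 0.192, adjusted p = 0.978) in the 9.

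Of the 3 exchangers best known from other tissues, Slc9a2 averaged 8.11 ± 0.602 CPM in E3A/E3A (n = 5), 8.24 ± 1.57 CPM in WT/E3A (n = 4) and 8.52 ± 1.32 CPM in WT/WT (n = 4, all SD). Slc9a5 averaged 4.92 ± 1.12 CPM, 5.17 ± 1.54 CPM and 4.98 ± 1.59 CPM in the same order of genotypes, and Slc9a3 averaged 1.31 ± 0.442 CPM, 1.81 ± 0.768 CPM and 1.35 ± 0.202 CPM. In the 9 libraries Slc9a2 averaged 8.37 ± 0.626, 7.49 ± 0.538 and 7.96 ± 0.8293 CPM, Slc9a5 4.26 ± 0.881, 4.49 ± 0.900 and 4.198 ± 0.326 CPM, and Slc9a3 1.33 ± 0.355, 1.58 ± 0.747 and 1.295 ± 0.209 CPM, in E3A/E3A, WT/E3A and WT/WT hearts (SD, n = 3 each). All of them overlapped between genotypes in both sets. In E3A/E3A against WT/WT Slc9a2 had log2 fold changes of -0.07 (SE 0.144) in the 13 libraries and 0.08 (SE 0.102) in the 9. Those of Slc9a5 were -0.02 (SE 0.253) and 0.03 (SE 0.166), and those of Slc9a3 were -0.03 (SE 0.321) and 0.06 (SE 0.305). Every one of these 6 values had an edgeR adjusted p of 0.926 or more. In the 2 comparisons that involve WT/E3A, the lowest edgeR adjusted p of the 5 members other than Slc9a9 in the 9 libraries was 0.844 where they were set over WT/WT and 0.799 where E3A/E3A was set over them, and it was 1 in both cases in the 13.

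The other members were also set out by the mark on the library, with no test. Slc9a8 was lower in the 4 marked libraries (33.96 to 44.7 CPM) than in the other 9 (44.96 to 54.1 CPM), with no overlap, also when scaled by total counts alone (27.3 to 41.3 and 47.8 to 57.5 CPM). Slc9a5 was higher in the marked libraries (5.58 to 7.33 CPM) than in the other 9 (3.27 to 5.23 CPM), but scaled by total counts the 2 sets overlapped (5.32 to 6.08 and 3.42 to 5.53 CPM). For Slc9a9 the 2 sets overlapped (0.275 to 2.98 and 0.524 to 3.39 CPM). The spread of Slc9a9 between hearts had an SD of 1.41 on the log2 scale in the marked libraries (n = 4) and of 1.07 in the others (n = 9).

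The other genes of proton and sodium handling and of the organelles where exchangers sit were counted in 7 lists, and 0 of their tested genes were called by edgeR in any of the 6 comparisons. At an unadjusted p under 0.05 edgeR passed 7 of the 88 tested genes in E3A/E3A against WT/WT, 2 in WT/E3A against WT/WT and 4 in E3A/E3A against WT/E3A (all 9 libraries). The shares over all tested genes were 7.69, 6.36 and 6.91% in that order, so these counts are near or below the background. The count was 0 of 87 in each comparison of the 13. The lists and their tested genes were other SLC9 genes (3 in the 9 libraries), exchanger cofactors and scaffolds (11), vacuolar proton ATPase (18), endosomal and lysosomal channels and exchangers (9), endosomal recycling (20), other acid-base transport with carbonic anhydrases (15), and the sodium pump with sodium-calcium exchange (12). Their median log2 fold changes in E3A/E3A against WT/WT in the 9 libraries were -0.04, -0.02, -0.01, -0.01, -0.03, 0.02 and 0.03 in that order, against 0.00 over all genes tested. In the 13 libraries the medians were 0.01, -0.03, 0.00, 0.01, -0.05, 0.04 and 0.01, against -0.02 over all genes. Ehd4, an endosomal recycling ATPase, had the lowest edgeR adjusted p of the genes named from the lists in this comparison, 0.186, with 590 ± 24.3 CPM in E3A/E3A and 516 ± 25.8 CPM in WT/WT, and with 13 libraries its log2 fold change was 0.17 (edgeR adjusted p = 1). The vacuolar proton pump subunits Atp6v0a1 (131 ± 8.83 against 131 ± 2.98 CPM) and Atp6ap1 (144 ± 4.86 against 145 ± 2.43 CPM) and the endosomal chloride-proton exchanger Clcn3 (73.0 ± 1.99 against 78.0 ± 3.52 CPM) had log2 fold changes of 0.01, -0.02 and -0.10 in the 9 libraries and 0.03, -0.02 and -0.08 in the 13. Several of these genes moved with the mark on the library: Tfrc, the transferrin receptor, had 43.5 to 110 CPM in the marked libraries and 176 to 245 CPM in the others, and Slc4a3, a chloride-bicarbonate exchanger, had 578 to 1072 and 375 to 429 CPM.

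In E3A/E3A against WT/WT hearts of the 9 libraries, the neighbours of Slc9a9 on chromosome 9 had far smaller fold changes than it had. Slc9a9 was selected on that value and the neighbours were not, so the contrast is a description only. Of the genes within 5 Mb of Slc9a9, 42 were tested in the 9 libraries, and 0 were called. Their log2 fold changes in E3A/E3A against WT/WT ran from -0.28 to 0.28 with a median of -0.01. At an unadjusted p under 0.05 by edgeR, 3 passed, against 7.69% of all tested genes in that comparison. The nearest tested gene before Slc9a9, 1190002N15Rik, at a gap of -131.5 kb (negative meaning before its start), had a log2 fold change of 0.00 (edgeR adjusted p = 1), and the nearest after it, Chst2, a sulfotransferase gene at a gap of 170.5 kb, had 0.28 (adjusted p = 0.704). With 13 libraries 43 were tested and 0 were called, with values from -0.28 to 0.35. The correlation of neighbours with Slc9a9 lay between -0.51 and 0.52 over 13 hearts and between -0.61 and 0.85 over the 9, where the highest was that of Paqr9, a gene picked out after its value was seen. The median over neighbours was 0.15 in the 13 and 0.06 in the 9, against -0.00748 and -0.0029 over all genes tested.

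**Figure D5:**
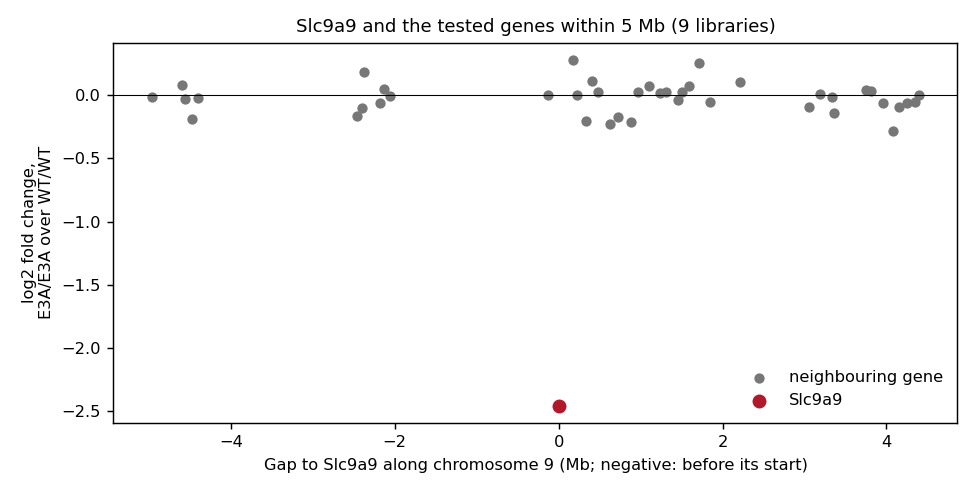
Log2 fold change in E3A/E3A over WT/WT hearts (9 libraries) of Slc9a9 and of the 42 tested genes within 5 Mb on chromosome 9, against the gap between gene and Slc9a9 in Mb. The neighbours lie between -0.28 and 0.28 and Slc9a9 at -2.45.

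The genes most like Slc9a9 across hearts were found by the Pearson correlation of log2(CPM + 0.1), given as a measure of likeness with no test. Over 13 hearts the highest included BC004004 (0.874), As3mt (0.860), 4632428C04Rik (0.843), Mttp (0.834), Nup93 (0.806), Vezt (0.800), 4933406C10Rik (0.793), A830010M20Rik (0.787) and Gcdh (0.776). The lowest were Efhd2 (-0.823), Mmp2 (-0.798), Adcy8 (-0.798), Gas1 (-0.791) and Mest (-0.791). Of the 9 genes named for high values, 4933406C10Rik spanned 6.31 times between hearts and A830010M20Rik 2.29 times, and the other 7 spanned 1.17 to 1.45 times, against 12.3 for Slc9a9. Over the 9 hearts other genes led, among them Clcc1 (0.970), Cat (0.958), Ptpn3 (0.955), Alox5 (0.943), Etfdh (0.938), Hadha (0.937), Slc25a32 (0.937), Eci1 (0.933) and Acat1 (0.927), and the lowest were Nrtn (-0.977), Csrp1 (-0.957), Lgals3 (-0.951), Kbtbd11 (-0.948) and Mfsd11 (-0.927). None of the genes named for the 13 hearts was among those named for the 9. In the 9 hearts Slc9a9 was apart by genotype, and it was selected on the E3A/E3A against WT/WT part of that difference. Likeness over the 9 hearts partly follows the same values and is not independent support. Cat, the catalase of peroxisomes, and Hadha, Eci1, Acat1 and Etfdh, enzymes of mitochondrial fatty acid and ketone oxidation, had 0.368, 0.540, 0.0411, 0.422 and 0.419 as their correlations when all 13 hearts were used. The correlations of the other members with Slc9a9 over 13 and 9 hearts were -0.51 and -0.34 for Slc9a2, -0.28 and 0.05 for Slc9a3, -0.09 and 0.18 for Slc9a5, -0.46 and -0.21 for Slc9a7, and 0.41 and 0.36 for Slc9a8. These hearts share genotypes, title prefixes and depth, and the genes share the scaling.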

How the data were processed

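For each heart the authors deposited a file of whole-number read counts by gene symbol. STAR 2.4.0 (aligner) and featureCounts 1.4.4 (counter) are named in the submitters' processing notes. How strand and reads with several possible places were treated, and the annotation, are not given in the sources used here. Each file was assigned to its genotype by its labels, and replicate numbers follow accession order and pair nothing. The labels name separate hearts, so p-values measure the spread between these hearts.

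The count model was edgeR 4.0.16 under R 4.3.3: genes were filtered with filterByExpr, scaled by TMM, and tested by quasi-likelihood F with robust dispersion, all 3 genotypes sharing a fit, with Benjamini-Hochberg adjustment over all genes tested and a threshold of 0.05. The fit was made on 13 libraries and on the 9 not described as potential outliers. SE is the log2 fold change divided by the square root of F. CPM were scaled by TMM over all 13 libraries. Alternatives used DESeq2 1.42.0, limma-voom (limma 3.58.1), no filter, total counts, the title prefix as a block and leaving out each heart. The procedure was tried on simulated counts that held no outlier libraries and, for the 13 libraries, less spread between hearts than was estimated. That trial cannot tell how well changes would be found in the 13 real libraries. Of the symbols, 22549 matched RefSeq names directly and 1352 through an older symbol. Promoter windows are from RefSeq and gene models from GENCODE.

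The members and lists were chosen with earlier results of these data known. Named genes are the 6 members, any called gene of a list, for each list the 2 with the highest CPM and the 2 with the largest fold change, the genes most and least like Slc9a9 and its neighbours with the closest gap or the largest correlation, of which only some are printed. Some genes that meet the rule are not reported here.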

Additional observations from a re-analysis of the deposited data

Results flagged for a closer look

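WT/WT replicate 1 had 1.924 CPM of Slc9a9, far below the other WT/WT hearts, the nearest of which had 3.305 CPM, so that this gap made up 0.939 of the range of the group. The heart is 1 of the 4 libraries described as potential outliers. It was the 1 heart that stood out in 18 tests of single hearts against their group. About 1 such test in 20 stands out by chance, and the 18 tests reuse the same hearts. What set this heart apart was not tested.

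Within title prefix C2 the 2 E3A/E3A hearts were higher in Slc9a9 than the WT/WT heart (log2 difference 0.519), and within C3 the 2 E3A/E3A hearts were lower than the WT/WT heart (-2.29). The directions were opposite, with both E3A/E3A hearts above the WT/WT heart in C2 and both below it in C3, and the difference between prefixes was not tested.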

How the results depend on the processing

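Without the 4 libraries described as potential outliers, 1 member, Slc9a9, was called where all 13 gave 0, in E3A/E3A against WT/WT and against WT/E3A. Its log2 fold changes there were -2.453 and -1.938, and 0.271% and 0.0417% of all genes tested were called. Slc9a9 was selected on the first of these comparisons, and the second shares its E3A/E3A hearts. Its calls and the ranges below are therefore descriptions. In the 9 libraries, limma-voom called 0 in E3A/E3A against WT/E3A where edgeR called 1 (Slc9a9 at -1.893); the cause was not tested. DESeq2 gave Slc9a9 no adjusted p in E3A/E3A against WT/WT in the 9 (-2.462), so its count is not given. Over the alternatives Slc9a9 lay between -2.453 and -0.8055 in E3A/E3A against WT/WT (13 libraries), between -2.625 and -2.38 in the 9, and between -2.109 and -1.851 in E3A/E3A against WT/E3A (9), where the 13 libraries gave -1.938 to -0.08499. With the title prefix as a block, WT/E3A against WT/WT turned to 0.3693 in the 13; the block then leaves comparisons with WT/WT resting on WT/WT replicates 1 and 2, and in the 9 on replicate 2 alone.

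The other 5 members had small fold changes in E3A/E3A against WT/WT, whose sign turned under some settings; the cause was not tested. Without the 4 libraries Slc9a2, Slc9a3 and Slc9a5 came to 0.08425, 0.05861 and 0.03413. Total counts gave Slc9a5 0.01654 in the 13. With limma-voom Slc9a7 came to -0.03607 in the 13 and -0.00397 in the 9. With the prefix as a block, Slc9a7 and Slc9a8 came to -0.05921 and 0.1781 in the 13, and Slc9a3, Slc9a5, Slc9a7 and Slc9a8 to -0.08275, -0.04817, -0.1031 and 0.06325 in the 9. Leaving out 1 heart at a time gave, in the 13, -0.1518 to 0.03066 for Slc9a2, -0.1645 to 0.1049 for Slc9a3, -0.12 to 0.2304 for Slc9a5, -0.09473 to 0.1427 for Slc9a7 and -0.144 to 0.04051 for Slc9a8, and, in the 9, -0.0698 to 0.2347 for Slc9a3, -0.08458 to 0.1759 for Slc9a5 and -0.1103 to 0.2419 for Slc9a7. Fold changes were recomputed for the 6 members in E3A/E3A against WT/WT and for Slc9a9 in the other comparisons. Among these, the DESeq2 values of Slc9a3, Slc9a7 and Slc9a9 in E3A/E3A against WT/WT (9) had no adjusted p, so only their sign was compared. In all, 34 turned sign, 243 kept sign and any known side of the threshold, 2 newly passed it and 1 no longer passed. Of 350 more, of the other 5 members in the comparisons with WT/E3A, 36 turned sign and 0 passed. Per-length levels over the longest transcript were higher. The 10 genes most like Slc9a9 shared 8 with those at a pseudocount of 1 CPM, 5 by Spearman and 2 with total counts only. No paired analysis was made because the labels name separate hearts and pair none of them. With 8 to 148 reads per heart, Slc9a9 values rest on few counts.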
